A study of Rattus norvegicus with 3 samples.

Results

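The genes of the cytosolic ribosome were taken by name as the protein-coding records whose symbol begins with Rpl or Rps followed by a digit, without the S6 kinase genes (names beginning Rps6k). The rule found 72 of the 33194 records, 43 with large-subunit names (Rpl) and 29 with small-subunit names (Rps). Of these, 9 do not carry the name of a standard ribosomal protein. They are 6 paralogues (Rpl3l, Rpl7l1, Rpl10l, Rpl22l1, Rpl36al and Rps4y2), 2 records with pseudogene names (Rpl32-ps1 and Rpl37a-ps1) and Rps19bp1, whose product binds ribosomal protein S19 and is not a subunit. A cytosolic ribosome holds a single copy of nearly every one of its proteins, the small subunit reading the mRNA and the large subunit joining the amino acids. In mammals most of these mRNAs begin with a run of pyrimidines, the terminal oligopyrimidine (TOP) tract, through which growth signals acting by mTOR control their translation together. The genes are active in every cell type, and in the kidney they serve tubule cells that make large amounts of transport protein.

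Kidney RNA was measured in 3 sequencing libraries, 1 for each rat strain. The Dahl salt-sensitive strain (Dahl S, 53 days old) develops high blood pressure on salt, the spontaneously hypertensive rat (SHR, 55 days old) does so without added salt, and the Dahl salt-resistant strain (Dahl R, 54 days old) resists salt. All animals were weaned at an age of 30 days and then ate a diet with 0.3% salt, and their total RNA was depleted of rRNA. The number of rats behind each library was not given in the sources used here. Strain, age, animal and library therefore cannot be told apart, and no difference could be tested against the spread between animals. Each record has an FPKM value (fragments scaled to transcript length and to library size), a unit that allows levels of genes to be compared, with a deposited lower and upper confidence limit of a level not given in the sources used here. Kidney markers were abundant, with the Umod record (uromodulin of the thick ascending limb) at 4028, 5783 and 4475 FPKM in Dahl S, SHR and Dahl R and Aqp2, the collecting-duct water channel, at 420, 591 and 409 FPKM. Both belong to a list of 7 kidney markers that did not all differ in the same direction, as given further below.

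A difference between libraries is given as the log2 ratio of FPKM + 1, and a record was called apart when that ratio was at least 1 in size, which is 2-fold. A record counted as measured from a mean of 1 FPKM over the 3 libraries upwards, which 70 of the 72 genes reached (41 large, 29 small). The other two, Rpl3l and Rpl10l, are described below. The deposited limits of the 72 genes lay a median of 31.0%, 30.3% and 30.6% away from the value in Dahl S, SHR and Dahl R. For many abundant genes this width hardly followed the level, with 29.2% for Rpl15 at 37.5 FPKM and 29.0% for Rps29 at 297 FPKM in Dahl S. Limits of such width overlap for differences well under 2-fold, so that overlap says little about smaller differences. Read totals were not given in those sources. If the limits are taken as the value plus and minus 2 roots of a fragment count, 20.1%, 19.6% and 19.8% of the low values gave whole counts to within 0.01, and these put the depth at 1.70 times that of Dahl S in SHR (448 records) and 1.33 times in Dahl R (534 records), an estimate that bears on values listed at 0.

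Start sites of 58 of the 72 genes were found by symbol in the RefSeq promoter sequences of build GRCr8, which lists 27457 symbols, and 14 were not matched. The 30 bases around the RefSeq start of 8 of them are shown because they span the range of levels and show starts with and without a pyrimidine run. The capitals mark the longest run of C and T in the window, and the transcript begins at base 16.
Rpl10 (chrX:157205835-157205864, + strand): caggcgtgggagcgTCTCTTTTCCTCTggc
Rpl19 (chr10:83519049-83519078, + strand): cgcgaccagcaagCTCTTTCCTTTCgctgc
Rpl10a (chr20:6390518-6390547, + strand): gaaaccttctgCCTTCTTTTCCggttcccg
Rpl35a (chr11:81235007-81235036, - strand): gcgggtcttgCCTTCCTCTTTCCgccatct
Rps15 (chr7:10068101-10068130, - strand): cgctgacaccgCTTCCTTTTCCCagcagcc
Rps26 (chr7:1643390-1643419, - strand): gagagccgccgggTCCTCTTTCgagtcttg
Rpl11 (chr5:153560788-153560817, - strand): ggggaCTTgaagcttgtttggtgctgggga
Rps12 (chr1:23500060-23500089, + strand): gcacagaagCCCagcagagcgcttaaatac

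Pyrimidine runs were frequent at these starts and lay on the transcribed strand. A run of at least 8 C or T within 20 bases of the start was present in 38 of the 58 genes (65.5%), against 15.5% of all 27457 symbols. A run of at least 8 A or G in the same window, which is a pyrimidine run on the other strand, was present in 1 of the 58 genes (1.72%), against 17.1% of all symbols. The motif CTTTC read on the transcribed strand was present within 20 bases in 26 genes (44.8%, against 5.04% of all symbols) and on the other strand in 1 gene (1.72%, against 4.93%). A start at C followed by C or T to at least the fifth base, as in the windows of Rpl10, Rpl19, Rpl10a, Rpl35a, Rps15 and Rps26, was present in 20 genes (34.5%, against 2.63% of all symbols), 13 of 33 large-subunit and 7 of 25 small-subunit genes. Over the whole 300 bases (250 before the start and 50 after it), CCGGAA on either strand was present in 29 of the 58 genes (50%, against 15.8%) and AAGATGG on either strand in 8 (13.8%, against 7.3%). These are matches of letters at annotated starts and say nothing of which start the kidney uses.

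The levels of genes with and without such a run were compared by their medians, with no test. The 38 genes with a run of at least 8 had a median of 61.8, 62.6 and 57.8 FPKM in Dahl S, SHR and Dahl R, and the 20 without it 61.0, 64.2 and 55.4 FPKM. For 6 of the 58 genes, Rpl35a among the windows shown, the record with the FPKM lies on another chromosome than the RefSeq start, so that sequence and level come from different loci. Without these 6, a comparison added after seeing the data, the medians were 64.1, 63.2 and 58.7 FPKM for 37 genes with a run and 50.8, 52.9 and 49.1 FPKM for 15 without it. Rpl11, with no run above 3 bases in its window, was among the most abundant.

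The 72 genes were among the more abundant of the kidney. Their median was 64.2 FPKM in Dahl S, 68.7 in SHR and 59.1 in Dahl R, a median percentile of 91.1, 91.8 and 90.5 among the measured protein-coding records. Together they held 1.34%, 1.31% and 1.26% of the protein-coding FPKM. At least 100 FPKM were reached by 27, 25 and 24 of them in the 3 libraries, which is 37.5%, 34.7% and 33.3%, against 5.26%, 5.05% and 5.13% of the 14183 measured protein-coding records. The levels of the 72 records were far from equal: the 90th percentile was 16.1-fold the 10th in Dahl S, 19.3-fold in SHR and 18.7-fold in Dahl R. Over the 63 standard names, whose proteins are built into the ribosome in nearly equal number, it was 16.3-fold, 19.4-fold and 17.0-fold. These are levels of single records. Several of the proteins have further records, as given below, so the spread is not that of the whole mRNA of each protein.

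**Figure D1:**
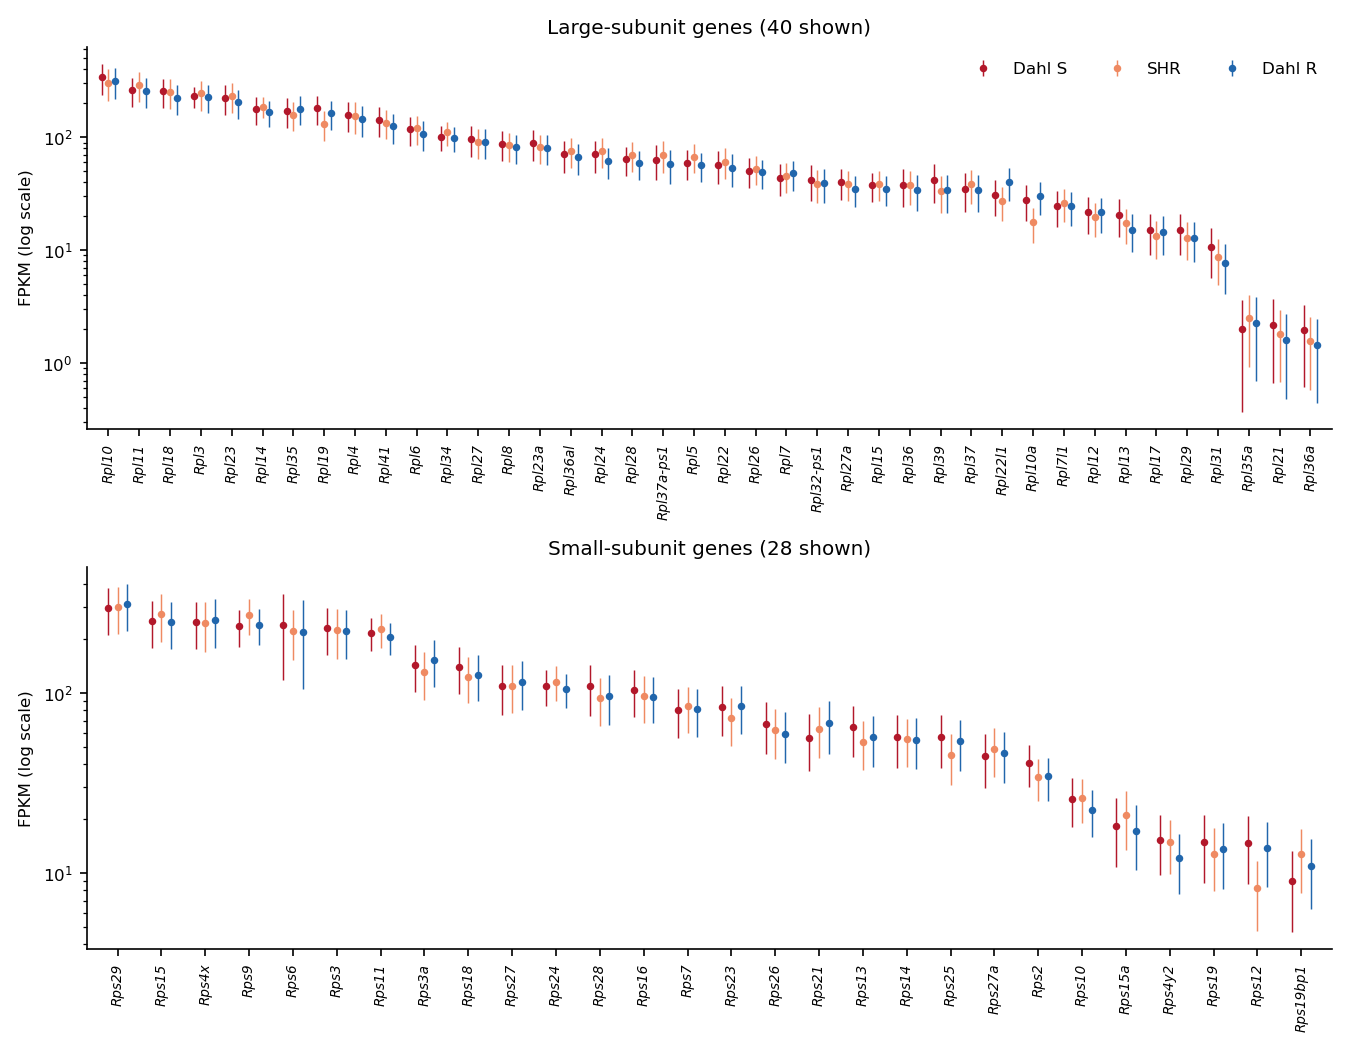
FPKM (log scale) of 40 measured large-subunit genes (top) and 28 measured small-subunit genes (bottom), ordered by mean level, in Dahl S, SHR and Dahl R (1 library each); the bars are the deposited confidence limits. The 3 limits of each gene shown overlap, from Rpl10 at 340, 306 and 317 FPKM to Rpl36a at 1.96, 1.58 and 1.44 FPKM, and the spread between genes is far wider than that between libraries.

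Large-subunit genes had lower and more scattered levels than small-subunit genes. Their median was 57.4, 61.1 and 53.5 FPKM in Dahl S, SHR and Dahl R, against 83.4, 84.1 and 84.4 FPKM for small-subunit genes. On the log2 scale, over measured genes, the large-subunit median lay below that of the small subunit by a difference of -0.48 in Dahl S, -0.31 in SHR and -0.56 in Dahl R. With more genes in the list, the large subunit still held more FPKM in sum, 1.24, 1.23 and 1.18 times that of the small subunit. Over all 43 large-subunit names, with the unmeasured Rpl3l and Rpl10l, the SD of the log2 level was 2.03, 2.07 and 2.07. Over the 29 small-subunit names it was 1.40, 1.45 and 1.43. Over standard names alone it was 1.85, 1.90 and 1.88 for the large subunit, against 1.25, 1.34 and 1.28 for the small subunit. The genes of a subunit are not replicates, and these differences are descriptions of 3 libraries.

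In the large subunit Rpl10, an X-linked gene whose protein is among the last to join the subunit, had 340, 306 and 317 FPKM in Dahl S, SHR and Dahl R (ENSRNOG00000027149, X chromosome, 160336636 to 160338842, - strand; positions are those of the tables, genome build not given in the sources used here). Rpl11 had 261, 292 and 258 FPKM and Rpl5 59.4, 67.4 and 56.9 FPKM, although their proteins enter the ribosome as a pair with the 5S rRNA and, outside it, bind Mdm2, the regulator of p53. Next came Rpl18 (256, 254 and 225 FPKM), Rpl3, a protein near the site of peptide bond formation (232, 245 and 226 FPKM), and Rpl23, another protein that binds Mdm2 (224, 233 and 205 FPKM). The Rpl23 locus in the tables spans 222213 bases and is shared by 10 records. Whether its reads overlap those of its neighbours was not examined.

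In the small subunit Rps29 had 297, 300 and 310 FPKM in Dahl S, SHR and Dahl R and Rps15, a protein needed for the export of small subunits from the nucleus, 250, 274 and 249 FPKM. The Rps29 record spans only 314 bases, and all 4 records of S29 summed to 1178, 1192 and 1232 FPKM. Rps4x had 248, 245 and 255 FPKM, Rps9 235, 272 and 238 FPKM, and Rps3, a protein at the mRNA entry that also has a part in DNA repair, 230, 224 and 221 FPKM. Rps6, the substrate that gave the S6 kinases their name, had 237, 221 and 217 FPKM. Its locus in the tables spans 373567 bases and is shared by 3 records, and its limits lay 50.2%, 30.6% and 51.7% from the value. Rps27a, which encodes a fusion of ubiquitin with its ribosomal protein, had 44.5, 48.9 and 46.2 FPKM, and Rps27 109, 110 and 115 FPKM. No pair of libraries had limits apart for any of these.

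Several standard subunits stood far below the rest, and their limits overlapped between libraries. Rpl36a had 1.96, 1.58 and 1.44 FPKM in Dahl S, SHR and Dahl R, Rpl21 2.19, 1.82 and 1.60 FPKM and Rpl35a 2.01, 2.50 and 2.26 FPKM. The highest library was 1.36-fold the lowest for Rpl36a, 1.37-fold for Rpl21 and 1.24-fold for Rpl35a. Of the long non-coding records at the Rpl21 locus, one had 9.54 FPKM in Dahl S and 0.400 in SHR and the other 6.94 FPKM in Dahl S, both being listed at 0 in Dahl R and the second also in SHR, with the limits of Dahl S apart from those of the others. A part of read sharing with these in the Rpl21 values was not tested. Rpl35a and Rps19 are among the genes mutated in Diamond-Blackfan anaemia, as are Rps24, Rps26, Rpl5 and Rpl11. Rps19 had 14.9, 12.8 and 13.5 FPKM, the third lowest of the small subunit, while Rps24 had 109, 115 and 105 FPKM and Rps26 67.4, 62.0 and 59.4 FPKM. At the lower end of the small subunit Rps4y2, a copy of the Rps4 family on chromosome 4 of the tables, had 15.3, 14.8 and 12.03 FPKM and Rps19bp1 8.95, 12.7 and 10.9 FPKM.

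Paralogues were not uniformly rare. Rpl36al had 71.2, 76.1 and 66.4 FPKM in Dahl S, SHR and Dahl R and so lay well above Rpl36a in every library. Rpl22l1 had 31.1, 27.2 and 40.3 FPKM, against 57.4, 61.1 and 53.5 FPKM for Rpl22, and Rpl7l1 24.7, 26.2 and 24.8 FPKM, against 44.0, 45.4 and 48.0 FPKM for Rpl7. Rpl10l, known from mouse as the testis counterpart of Rpl10, had 1.10, 1.18 and 0.164 FPKM, and Rpl3l, known as a muscle form of Rpl3, had 0.169 FPKM in Dahl S and 0.374 FPKM in Dahl R, with SHR listed at 0. Of the marker records of other tissues, the summed testis records (Prm1 and Tnp1) had 1.41 and 0.642 FPKM in Dahl S and SHR, with Dahl R listed at 0, and the summed skeletal muscle records 10.4, 8.80 and 8.34 FPKM. A part of such tissue in the paralogue values was not tested. Paralogues and pseudogenes share sequence with the standard gene, and with the assignment of shared reads not given in the sources used here, these levels are uncertain.

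Dahl S set against Dahl R, the comparison of the salt-sensitive with the salt-resistant strain, gave no ribosomal protein gene 2-fold apart. None of the 70 measured genes was called, where 1.97% of the measured protein-coding records were (1.08% of those of at least 10 FPKM), and none had limits apart, where 1.95% had. At such shares about 1 gene would be called among 70, so the absence of calls is near the background and is no result about these genes. The median log2 ratio was 0.09, with 54 of 70 genes above 0, against a median of 0.04 and 56.1% above 0 over all measured protein-coding records. By subunit the median was 0.10 for large-subunit genes (35 of 41 above 0) and 0.06 for small-subunit genes (19 of 29 above 0). Rescaling the libraries by the median of ratios left a median of 0.02 for the 70 genes. The 4 highest ratios were those of Rpl31 (10.7 and 7.71 FPKM in Dahl S and Dahl R, log2 ratio 0.42), Rpl13 (20.7 and 15.3, 0.42), Rps4y2 (0.32) and Rpl39 (42.0 and 33.9, 0.30). The 4 lowest were those of Rpl22l1 (-0.36), Rps21 (56.3 and 67.8, -0.26), Rps19bp1 (-0.25) and Rpl7 (-0.12).

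Dahl S set against SHR compared the libraries of both strains that are prone to high blood pressure. Again no gene was called (2.97% of measured protein-coding records were, and 2.02% of those of at least 10 FPKM) and none had limits apart (3.65%). The median log2 ratio was 0.02, with 39 of 70 genes above 0, against -0.0018 and 49.7%; with median-of-ratios scaling it was -0.03, and without genes that share a locus it was -0.02, so the sign of this median depends on both choices. Large-subunit genes had a median of 0.013 and small-subunit genes 0.03. The highest ratios were those of Rps12 (14.7 FPKM in Dahl S and 8.19 in SHR, log2 ratio 0.77), Rpl10a (27.9 and 17.8, 0.62), Rpl19 (182 and 131, 0.47) and Rps25 (56.8 and 45.0, 0.33). Among the lowest were those of Rps19bp1 (-0.46), Rps9 (-0.21) and Rps15a (18.3 and 20.9, -0.18).

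SHR set against Dahl R gave no gene called (2.78% of measured protein-coding records, 1.69% of those of at least 10 FPKM) and none with limits apart (3.7%). The median log2 ratio was 0.08, with 47 of 70 genes above 0, against 0.04 and 55.5%. The subunits differed most in this pair: large-subunit genes had a median of 0.11 (31 of 41 above 0) and small-subunit genes of 0.0090 (16 of 29 above 0), a difference of 0.10. The highest ratios were those of Rpl24 (75.5 FPKM in SHR and 61.7 in Dahl R, log2 ratio 0.29), Rpl37a-ps1 (70.3 and 57.6, 0.28), Rps4y2 (0.28) and Rps15a (20.9 and 17.1, 0.27). The lowest were those of Rpl10a (17.8 and 30.2 FPKM in SHR and Dahl R, -0.73), Rps12 (8.19 and 13.7, -0.68), Rpl22l1 (27.2 and 40.3, -0.55) and Rpl19 (-0.32). The 3 pairs share libraries, so they are not independent of each other.

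**Figure D2:**
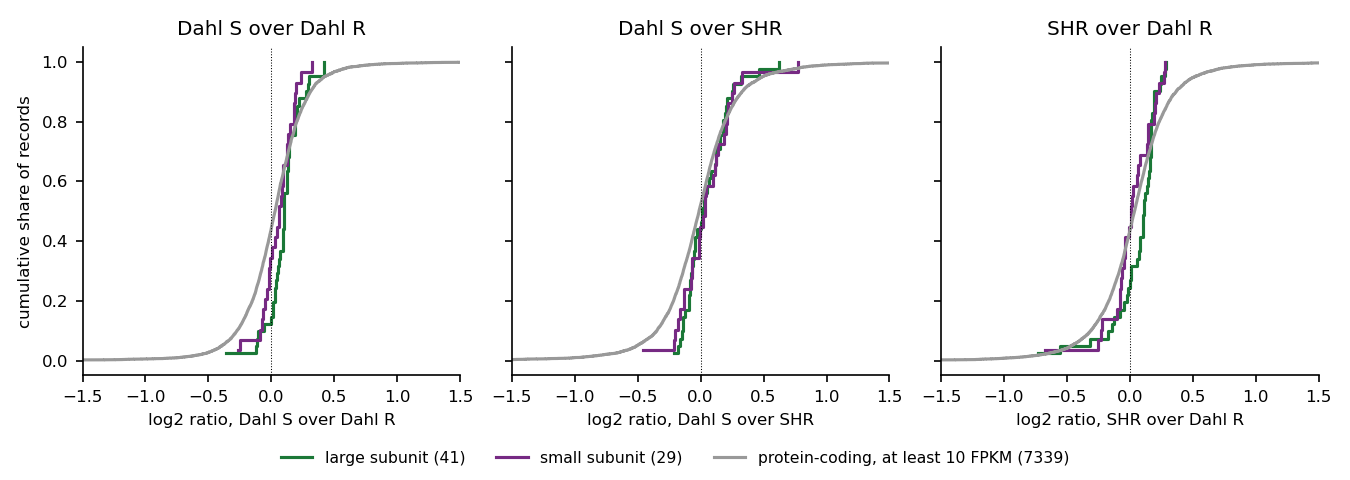
Cumulative share of records (vertical axis) by log2 ratio of FPKM + 1 (horizontal axis) in each pair of libraries, for 41 large-subunit genes, 29 small-subunit genes and 7339 protein-coding records of at least 10 FPKM. The ribosomal curves rise within a narrower range than the grey curve, and the large-subunit curve lies to the right of the small-subunit curve over most of its course in SHR over Dahl R.

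The log2 ratios of the ribosomal genes had a smaller SD than those of all protein-coding records of at least 10 FPKM. The SD of the log2 ratio over 66 ribosomal genes of that level was 0.13 for Dahl S over Dahl R, 0.20 for Dahl S over SHR and 0.21 for SHR over Dahl R, against 0.29, 0.35 and 0.34 over 7339 protein-coding records. Over all 70 measured genes it was 0.14, 0.20 and 0.20. In related lists described below it was 0.16, 0.22 and 0.21 for mitochondrial ribosomal proteins and 0.19, 0.16 and 0.22 for proteasome names. Elongation factors had 0.08, 0.10 and 0.07 and ribosome assembly genes 0.18, 0.28 and 0.24. A small SD is thus not particular to the cytosolic ribosomal genes. The highest of the 3 libraries was within 1.25-fold of the lowest for 57 of the 66 genes (86.4%), against 60.9% of the protein-coding records, and the median of that fold was 1.14 against 1.20. Of the 66 genes, Rps12 and Rpl10a exceeded 1.5-fold (3.03%, against 12.99%). This is a description with no test, since genes are not replicates and the sets were not matched on level. Dahl R was the lowest library for 41 of 70 genes (29 of 41 large, 12 of 29 small), against 38.04% of all measured protein-coding records.

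Rps12 and Rpl10a, the genes with the widest differences among those of at least 10 FPKM, were both lowest in SHR. Rps12 (chromosome 1, 22265324 to 22267482, + strand) had 14.7 FPKM in Dahl S (limits 8.64 to 20.7), 8.19 in SHR (4.75 to 11.6) and 13.7 in Dahl R (8.31 to 19.1). Rpl10a (chromosome 20, 6569078 to 6571640, + strand) had 27.9 FPKM in Dahl S (18.2 to 37.5), 17.8 in SHR (11.7 to 23.8) and 30.2 in Dahl R (20.4 to 39.9). The SHR value is low in both, and its limits overlap those of both other libraries. Both loci are shared with a long non-coding record on the same strand. That record was higher in SHR at the Rpl10a locus, with 22.6, 34.2 and 17.3 FPKM in Dahl S, SHR and Dahl R, and had 49.3, 50.1 and 44.4 FPKM at the Rps12 locus. The Rps12 locus is also shared with 3 small nucleolar RNA records, of which SNORA33 had 5.21, 24.7 and 3.38 FPKM, highest in SHR with limits apart from both others, SNORD101 40.7, 26.5 and 14.7 FPKM and SNORD100 240, 266 and 205 FPKM. Whether the transcripts of records that share a locus overlap was not examined, and a part of the neighbours in the low SHR values was not tested.

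Sharing of loci was common among these genes. Of the 72 records, 36 had a locus of their own and 36 shared it, 21 of them with 41 records of small nucleolar RNAs, which in mammals often lie in introns of ribosomal protein genes, and 7 with another protein-coding record. The genes that shared a locus had a median of 53.7 FPKM, as the mean over libraries, and those alone 75.6 FPKM. The order was reversed for small nucleolar RNAs: the 21 genes that shared a locus with them had a median of 83.9 FPKM and the other 51 genes 63.0 FPKM. The 72 records lay on 20 chromosomes, with 11 on chromosome 1, 8 on chromosome 10 and 3 on the X chromosome.

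The chromosome of a record did not always match that of RefSeq. For 6 of the 58 matched genes the chromosome in the tables differed from that of the RefSeq start of the same symbol: Rpl6, Rpl12, Rpl35a, Rpl36, Rpl41 and Rps4x. For 4 of these, another record of the same protein lay on the RefSeq chromosome. The Rps4x record lies on chromosome 4 with a span of 792 bases, while the record on the X chromosome, LOC100362640, spans 4359 bases and had 147, 145 and 144 FPKM in Dahl S, SHR and Dahl R. The Rpl6 record (chromosome 6, span 936) had 118, 121 and 107 FPKM, and the record on chromosome 12, D4ADN2_RAT, 97.0, 95.9 and 87.1 FPKM. For Rpl12 (chromosome 8, span 733) the values were 21.9, 19.6 and 21.7 FPKM, and for LOC499782 on chromosome 3 they were 43.2, 53.3 and 45.1 FPKM. L35a was also low in the record on the RefSeq chromosome, LOC100359498 on chromosome 11, with 1.35, 1.03 and 1.49 FPKM. All 4 records of L35a summed to 4.74, 4.58 and 4.77 FPKM.

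Ribosomal proteins of rodents have many processed copies in the genome, and the tables list them under other names. By description or symbol, 158 records named 79 cytosolic ribosomal proteins (47 large, 32 small), of which 64 were among the 72 genes and 94 were not. Of these 94, 55 spanned under 1000 bases. Several records stood for the same protein in 36 cases, and 16 proteins, among them L13a, L32, L38, S5 and S20, had no record under the name rule, the pseudogene names Rpl32-ps1 and Rpl37a-ps1 not being counted for L32 and L37a. All 158 records together held 2.73%, 2.71% and 2.61% of the protein-coding FPKM in Dahl S, SHR and Dahl R. Because copies are nearly identical, their reads may be split among them in ways these tables do not show.

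**Figure D3:**
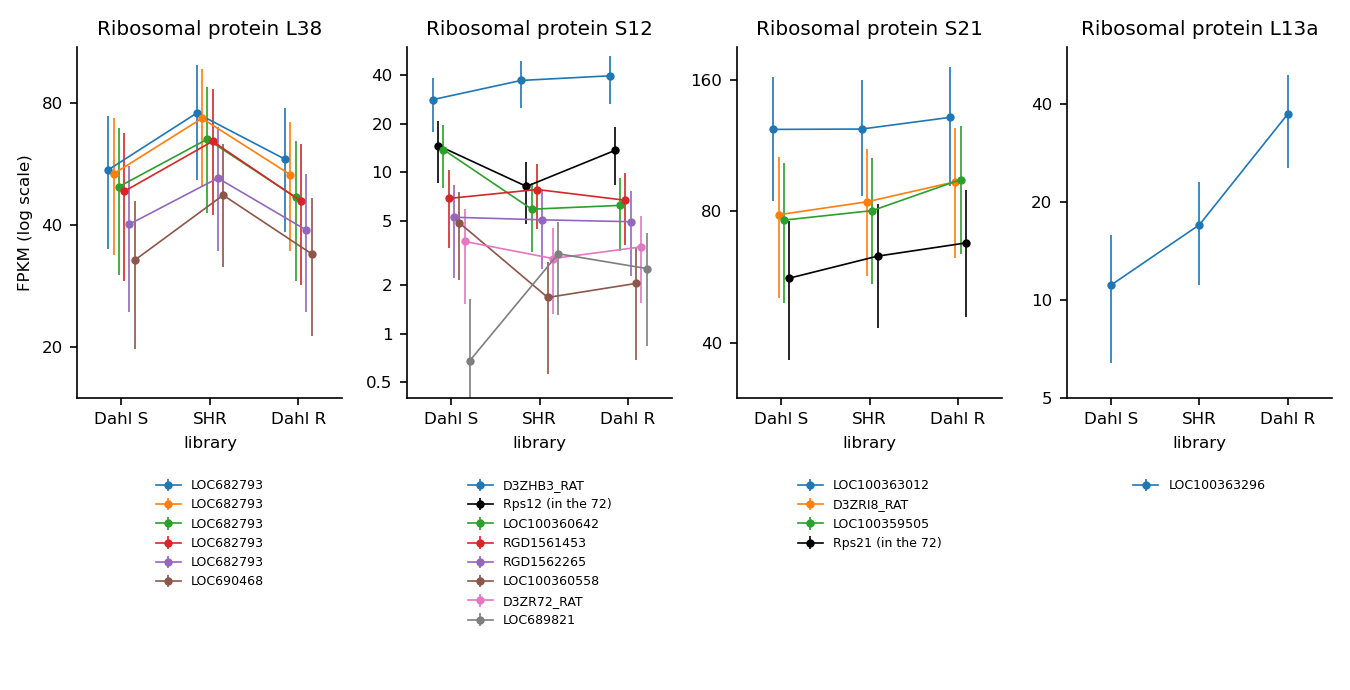
FPKM (log scale) of all measured records named as ribosomal protein L38, S12, S21 or L13a in Dahl S, SHR and Dahl R, with the deposited confidence limits as bars; lines join the values of 1 record and black marks those found by the name rule. The 6 L38 records are each highest in SHR, the 4 S21 records each lowest in Dahl S, the S12 records cross, and the L13a record has 11.1, 17.0 and 37.3 FPKM.

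Among these other records, those of L38 all pointed the same way. L38, which in the mouse is needed for the translation of a set of Hox mRNAs, has 6 records, and each was highest in SHR, with log2 ratios of Dahl S over SHR from -0.52 to -0.37. Their sum was 279 FPKM in Dahl S, 378 in SHR and 277 in Dahl R, a log2 ratio of -0.43 for Dahl S over SHR and 0.45 for SHR over Dahl R. All limits overlapped. One of the 6, LOC690468 on chromosome 10, spans 3636 bases and had 32.8, 47.4 and 34.0 FPKM, while 4 of the others span under 1000 bases. Records that share reads are not independent, so 6 like patterns may be 1. The 4 S21 records were each lowest in Dahl S, with a sum of 334, 351 and 387 FPKM.

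The S12 records pointed different ways. While Rps12 itself was lowest in SHR, D3ZHB3_RAT (chromosome 19) had 28.3, 37.2 and 39.7 FPKM in Dahl S, SHR and Dahl R. LOC100360642 had 13.9, 5.91 and 6.24 FPKM, a log2 ratio of 1.04 for Dahl S over Dahl R and 1.10 for Dahl S over SHR, with overlapping limits in both pairs. The sum over the 10 S12 records was 79.0, 73.1 and 80.7 FPKM, with SHR still the lowest library but by less in proportion (log2 ratio 0.11 for Dahl S over SHR and -0.14 for SHR over Dahl R).

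L13a, a protein that in human cells also takes part in silencing interferon-induced mRNAs, has no record under the name rule. The only record described as L13a was over 2-fold lower in Dahl S and in SHR than in Dahl R, which need not hold for L13a mRNA as a whole. This record, LOC100363296 (chromosome 1, 95600422 to 95603505, - strand), had 11.1 FPKM in Dahl S (limits 6.40 to 15.8), 17.0 in SHR (11.1 to 23.0) and 37.3 in Dahl R (25.4 to 49.3). The log2 ratio was -1.66 for Dahl S over Dahl R, -0.57 for Dahl S over SHR and -1.09 for SHR over Dahl R, and the limits of Dahl R were apart from those of both other libraries. The locus is shared by 7 records, 4 of them small nucleolar RNAs and 2 long non-coding. One long non-coding record there ran the other way, with 98.9, 96.6 and 64.2 FPKM, and the other had 23.9, 23.6 and 23.7 FPKM. A part of read sharing with these in the L13a values was not tested. Of the 94 records outside the name rule, 83 were measured. Among them 4 were called for Dahl S over Dahl R, 4 for Dahl S over SHR and 1 for SHR over Dahl R. The shares over all measured protein-coding records were 1.97%, 2.97% and 2.78%. Besides L13a, the called records were 3 of S12 (LOC100360642, LOC100360558 and LOC689821) and LOC100364491, described as L7a. This last record is labelled a pseudogene, in a shared locus of 233593 bases. It had 3.02 FPKM in Dahl S, with the value listed at 0 in SHR and Dahl R.

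Genes that work beside the ribosomal proteins also differed by less than 2-fold between the libraries in the ratio of FPKM + 1. The stalk proteins and others whose symbols the name rule passes over included the most abundant records: Rplp0 had 575, 520 and 534 FPKM in Dahl S, SHR and Dahl R, Rplp1 513, 560 and 492 FPKM and Rpsa 141, 156 and 143 FPKM. The elongation factors Eef1a1 (531, 461 and 506 FPKM) and Eef2 (490, 483 and 495 FPKM), which bring in tRNA and move the ribosome along, were at the same height. Among 10 other genes with TOP mRNAs, Tpt1 was highest (456, 346 and 440 FPKM). The 23 ribosome assembly genes had a median of 12.2, 13.01 and 11.5 FPKM, the 65 mitochondrial ribosomal protein genes 31.9, 31.8 and 30.2 FPKM and the 36 genes with proteasome names 50.03, 50.4 and 47.3 FPKM. One of these 36, Psmc3ip, encodes a partner of a proteasome subunit in meiotic recombination and no subunit.

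None of these lists had a gene 2-fold apart in any pair by that ratio, although the FPKM themselves differed by a little more for Myc and Psmd9. Over all measured protein-coding records the share called was 1.97% for Dahl S over Dahl R, 2.97% for Dahl S over SHR and 2.78% for SHR over Dahl R. At such shares only a few calls would be met in lists of this size, so nothing is concluded from their absence. The median log2 ratio of Dahl S over Dahl R was 0.08 for the 4 other ribosomal proteins, 0.06 for 6 measured elongation factors and 0.08 for the TOP mRNAs. Assembly genes had 0.10, mitochondrial ribosomal proteins 0.06 and the proteasome 0.05. The 70 cytosolic genes had 0.09 and all measured protein-coding records 0.04. For Dahl S over SHR the list medians ran from -0.06 (proteasome) to 0.15 (elongation factors), against 0.02 for the 70 genes. For SHR over Dahl R they ran from -0.06 (elongation factors) to 0.09 (proteasome), against 0.08. For 14 genes of mTOR and S6 kinase signalling the median of Dahl S over Dahl R was -0.02. In that list Mtor itself had 12.96, 14.0 and 15.6 FPKM in Dahl S, SHR and Dahl R and Rps6kb1, an S6 kinase, 8.80, 8.59 and 9.22 FPKM. Myc, a transcription factor that drives ribosome production, came nearest to the 2-fold mark in that list with 6.73, 3.09 and 3.64 FPKM (log2 ratio 0.92 for Dahl S over SHR and 0.74 for Dahl S over Dahl R) and overlapping limits in both pairs. Mrpl4 of the mitochondrial ribosome had 52.9, 26.9 and 49.2 FPKM, a log2 ratio of 0.95 for Dahl S over SHR, with the limits of SHR apart from those of both others. Psmd9, an assembly factor of the proteasome, had 12.2, 12.3 and 5.74 FPKM, a log2 ratio of 0.97 for Dahl S over Dahl R and 0.98 for SHR over Dahl R, with limits apart in the second of these pairs. Nop58, a protein of the small nucleolar RNA complexes that guide rRNA methylation, had 11.6, 15.8 and 9.27 FPKM, a log2 ratio of 0.71 for SHR over Dahl R with limits apart.

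**Figure D4:**
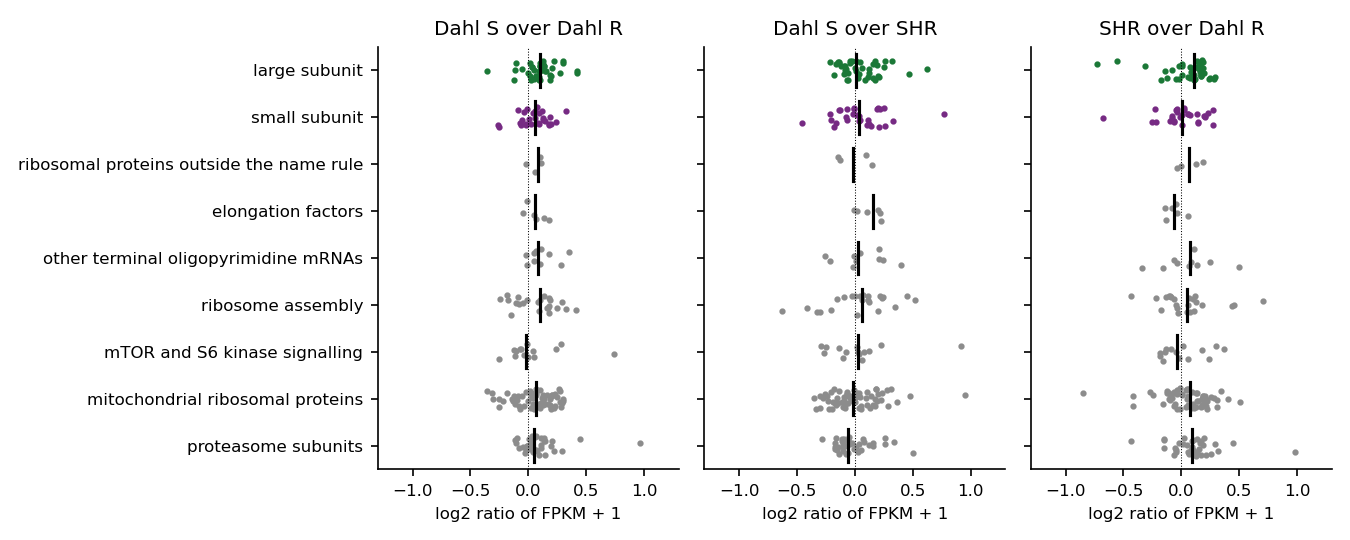
Log2 ratio of FPKM + 1 in each pair of libraries for every measured gene (1 point a gene) of the large and small subunit and of 7 lists of related genes; the black bars are medians and the vertical scatter within a row carries no value. The points of all rows lie within 1 log2 unit of 0, and the Myc point of the mTOR row (0.92 in Dahl S over SHR), the Mrpl4 point (0.95) and the Psmd9 point (0.97 in Dahl S over Dahl R) stand apart from their rows.

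The libraries differed in other ways that move with the total to which FPKM is scaled. Records of the mitochondrial genome held 21.9%, 28.1% and 24.8% of all FPKM in Dahl S, SHR and Dahl R, and haemoglobin records 1.53%, 0.333% and 0.635%. Dahl S exceeded either other library by 2-fold or more in all 4 red cell markers, while 4 of 5 fat cell markers were 2-fold lower in Dahl S than in SHR and 4 of 5 were 2-fold higher in SHR than in Dahl R. Of the 4 lymphocyte markers, 2 were 2-fold higher in Dahl S than in SHR and 3 were 2-fold lower in SHR than in Dahl R, and none of the 4 macrophage markers was 2-fold apart in any pair. The log2 ratios of 7 kidney markers ran from -0.51 to 0.42 for Dahl S over Dahl R and from -0.69 to 0.34 for Dahl S over SHR. For SHR over Dahl R they ran from -0.71 to 0.53. Limits were apart for 1 kidney marker, in Dahl S over SHR. The summed red cell markers had 12880, 2968 and 5329 FPKM in Dahl S, SHR and Dahl R, the fat cell markers 153, 457 and 114 FPKM, the macrophage markers 735, 624 and 572 FPKM and the lymphocyte markers 9.20, 3.55 and 12.6 FPKM, with Cd3d listed at 0 in SHR. A part of these cells in the ribosomal values was not tested. With FPKM rescaled to a total without mitochondrial and haemoglobin records, the median log2 ratio of the 70 genes was 0.05 for Dahl S over Dahl R, 0.0045 for Dahl S over SHR and 0.06 for SHR over Dahl R. In RNA of whole kidney, fewer cells of a type and less RNA per cell cannot be told apart.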

How the data were processed

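RNA of rat kidney was sequenced in 3 libraries. Per the submitters' processing notes, the tools were TopHat 1.3.1 and Cufflinks 1.0.3. FPKM values and their limits were used as the authors deposited them, per the file headers. Genome build, annotation, confidence level, read totals and use of strand were not given in the sources used here. Each record was 1 row. From the FPKM, log2 ratios with a pseudocount of 1 were computed over the whole table for 3 pairs of libraries (Python 3.11.15, pandas 2.3.3, numpy 2.4.6), with a minimum mean of 1 FPKM. With 1 library per strain there is no p-value; a call is a 2-fold difference, and overlap of the limits was recorded. The code was checked on simulated data. Members and lists were chosen with earlier results of these data known. Genes named are the 6 highest and 4 lowest of each subunit by mean FPKM, the 4 highest and 4 lowest ratios of each pair among genes of at least 5 FPKM, genes called or listed at 0 in part of the libraries, and fixed genes of background interest; from related lists, the most abundant. A few genes that this rule names are not reported here. Same-protein records, locus neighbours and chromosome mismatches, Mrpl4, Psmd9, Nop58 and Psmc3ip were chosen after their values were seen. RefSeq start sites were matched by symbol, the first row of a repeated symbol being kept. Pseudocount, minimum, scaling, locus and name filters were varied.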

Additional observations from a re-analysis of the deposited data

How the results depend on the processing

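Over 15 values (calls, median ratios and subunit differences in each pair, subunit level differences and FPKM shares in each library), 156 alternative values were computed. Of these, 15 moved by more than 0.1 or to another count of calls, a tolerance as wide as most of the median ratios, whose ranges are therefore given. The median log2 ratio lay between 0.02 and 0.10 for Dahl S over Dahl R, between -0.03 and 0.04 for Dahl S over SHR and between 0.04 and 0.12 for SHR over Dahl R. The large minus small difference in it lay between 0.04 and 0.10, near -0.02 and between 0.09 and 0.14 in the same pairs, and leaving out genes that share a locus gave 0.10 for Dahl S over Dahl R, against 0.04 with them. Summing all records of the same protein, an alternative chosen after seeing the data, gave 2 proteins 2-fold apart for Dahl S over Dahl R (L13a and L7a), 0 for Dahl S over SHR and 1 for SHR over Dahl R (L13a), since it adds proteins outside the name rule. The L13a sum holds 1 record. The L7a sum holds 2 records, and its call rests on LOC100364491, which is labelled a pseudogene. The protein-coding record of L7a alone had a log2 ratio of 0.65 for Dahl S over Dahl R, with overlapping limits. The large minus small difference in median log2 level moved to -0.83 in Dahl S, -0.63 in SHR and -0.87 in Dahl R with records of the same protein summed, and to -0.74, -0.44 and -0.71 with paralogue, pseudogene and non-ribosomal names left out. In SHR it was -0.45 with no minimum level. Leaving out genes that share a locus lowered the share of protein-coding FPKM to 0.682% in Dahl S, 0.679% in SHR and 0.653% in Dahl R, since fewer genes are summed. Leaving mitochondrial and haemoglobin records out of the total raised it to 1.69%, 1.70% and 1.63%. No paired analysis was possible because each strain has 1 library, and for the same reason no library could be left out. The deposited limits do not cover the spread between animals.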
